A study of Xenopus tropicalis with 40 samples.

Results

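Giant loci are the places in the genome of the western clawed frog Xenopus tropicalis where at least 1 assembled or annotated transcript had 40 or more exons. They were chosen by exon number alone, and 166 of 31388 loci (0.529%) qualified, or 0.720% of the 23068 loci with a spliced transcript. The RNA was polyadenylated RNA of whole embryos of an outbred strain, taken from the 2-cell embryo to stage 45. It was sequenced as 40 libraries of 23 stages in 2 clutches, 16 libraries from clutch 1 and 24 from clutch 2. What was analysed is 1 catalogue of gene models pooled over all of these libraries, so no value belongs to a stage or clutch, library depth is unknown and there are no replicates. Exon number chose the loci, and span, isoform number and the number of splicing events can move with it, so the values below are descriptions and carry no p-value.

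Genes with many exons commonly encode very long proteins made of repeated units: the rods of collagens, the domains of laminins and fibrillins, and the repeats of spectrins and nuclear envelope proteins. An exon whose length is a multiple of 3 bases, the length of a codon, can be left out or repeated without shifting the reading frame of what follows. In fibrillar collagens of vertebrates the triple helix, a repeat of glycine and 2 other amino acids, is known to be encoded largely by exons of 54 bases or of lengths related to it.

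Of the 166 giant loci, 73 (44.0%, 95% Wilson interval 36.6 to 51.6) carried an annotated gene on their own strand. Another 90 were of class u, meaning that no transcript touched an annotated gene, and the remaining 3 held antisense transcripts of annotated genes without a gene of their own. Among the 1720 loci with 20 to 39 exons, 50.5% carried an annotated gene. Intervals for shares cover counting error only, and transcripts and exons of 1 locus are not independent.

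The annotated giant loci carried 79 gene symbols, which is 0.948% of the 8329 symbols in the catalogue. Matrix and cytoskeletal proteins were among the largest. The largest transcript that shared a junction with its annotated gene had 80 exons over 66.6 kb. It was that of lama5, a laminin alpha chain of basement membranes. Next came syne1, a nuclear envelope protein with spectrin repeats, with 70 exons, and reln, the secreted protein reelin that guides migrating neurons, with 63. LOC100170623, a provisional symbol with no other name in the RefSeq table, had 60. The largest transcripts at cnot1 (scaffold of the CCR4-NOT deadenylase), gcn1l1 (a ribosome-associated activator of stress signalling) and eef2.2 had 58 exons each. Those at tln2 (talin) and col24a1 (a fibrillar collagen) had 57 each. The 58-exon transcript at eef2.2 shared a junction with the gene, but how many of its exons belong to eef2.2 was not tested. The same locus also held a class u transcript of 44 exons, which touched no annotated gene. At 5 annotated loci, those of eef2.2, mccc2, lss, flna and rhog, a class u transcript had 40 or more exons.

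Among the 12 annotated loci with the most exons, 3 carried a symbol that the giant transcript only overlapped. They carried ifit5 (103 exons), slc39a3 (77 exons) and tulp3 (67 exons), and their largest transcript was of class o, which marks exon overlap with an annotated gene without a shared junction. In all, the largest transcript shared a junction with the annotated gene at 68 of the 73 loci, the exceptions being these 3 and the loci of lss and rhog. At rhog a class u and a class j transcript both had 40 exons. The largest transcript was of class j, a new junction chain that shares a junction with the gene, at 63 loci. It was of the annotated chain itself at 5. Whether all exons of a class j transcript are those of the gene was not tested.

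At 14 loci the catalogue held the annotated junction chain, so it could be set beside the largest transcript. That chain had 40 or more exons at 9 of them, among them trio (55 exons in the chain, 56 in the largest transcript) and abca4 (51 in both). At the other 5 the chain was shorter. For ints2, a subunit of the Integrator complex, it had 24 exons against 41, and 22 of its 23 junctions lay in the larger transcript. For rhog, a small GTPase gene, the chain had 2 exons and shared 0 junctions with the class u transcript of 40 exons at its locus. Some loci joined several annotated genes, among them cttn with ppfia1, myh3 with myh7, mtbp with taf2, and adam19 with cyfip2 and nipal4.

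Class u loci reached as many exons. The largest transcript of the catalogue, with 107 exons and 17932 bases, lay on the plus strand of scaffold GL173097 from 562306 to 673709 (XLOC_018068), between fam98a and a locus of clip3, eif3k and tspan15. XLOC_010985 had 86 exons, on the minus strand of GL172827 from 1834684 to 1900904 between ass1 and ncs1. XLOC_018970 had 80 (GL173143, minus strand, 515425 to 606682), and XLOC_007385 had 79 (GL172739, minus strand, 1257422 to 1393505). XLOC_012024 had 78 (GL172858, minus strand, 173968 to 236224), and XLOC_003875 had 74 (GL172680, plus strand, 2240187 to 2339545). Of the 28 loci with 60 or more exons, 21 were of class u and 7 annotated. Of the 60 loci with 50 or more exons, 34 were of class u and 26 annotated. The median exon number was 47 in class u and 46 in annotated loci.

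Giant loci spanned 14.5 to 365 kb, with a median of 82.7 kb (quartiles 56.3 and 124 kb). The median was 81.6 kb for annotated and 84.4 kb for class u loci, and 50.2 kb for loci with 20 to 39 exons. Exons of the largest transcript filled a median of 10.2% of the stretch from its own start to its own end. Loci of similar exon number differed widely in span. The smallest was myh4, a skeletal muscle myosin heavy chain, with 43 exons in 14.5 kb. Next was nup188, a nuclear pore scaffold protein, with 44 exons in 18.8 kb. The widest was XLOC_014372 of class u, with 45 exons over 365 kb, followed by the locus carrying slc39a3 (354 kb), XLOC_004890 (343 kb), XLOC_003761 (331 kb), trio (297 kb) and XLOC_015386 (289 kb). At XLOC_014372 the first intron alone had 199361 bases, at XLOC_003761 220389, at XLOC_015386 100189 and at trio, a guanine nucleotide exchange factor of axon guidance, 91357.

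**Figure D1:**
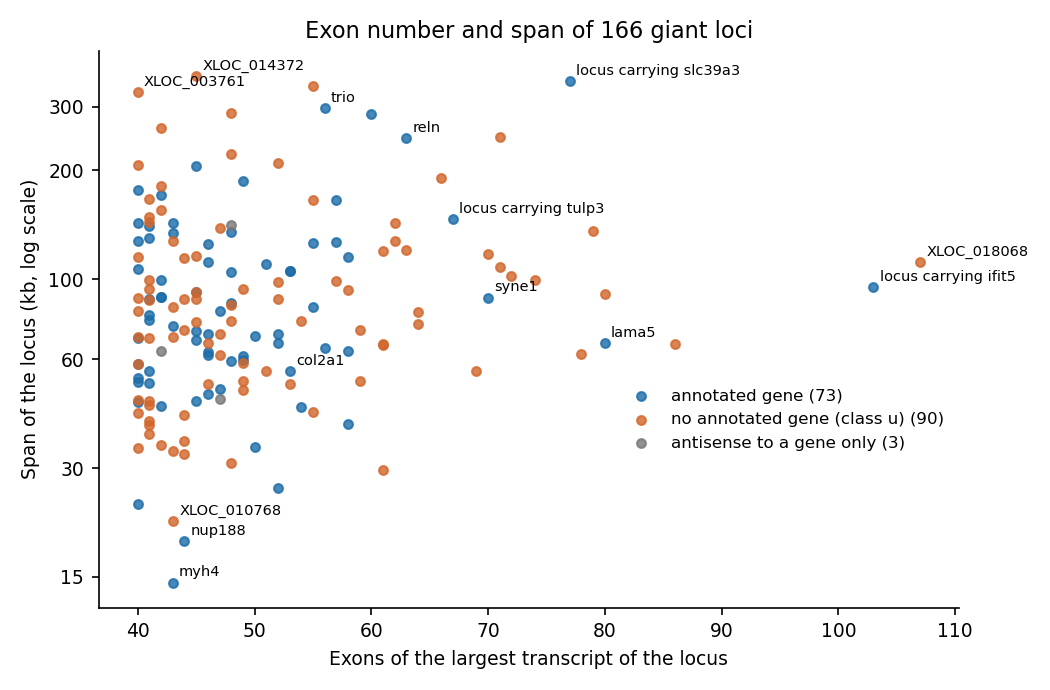
Exons of the largest transcript (x axis) against span in kb on a log scale (y axis) for the 166 giant loci, 1 point per locus, coloured by whether an annotated gene lay on the locus. Spans run from 14.5 kb at myh4 to 365 kb at XLOC_014372, and the 107-exon class u locus at the far right spans 111 kb.

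The first intron of the largest transcript had a median of 3438 bases, against 687 for the median of the other introns. It was longer than that median at 135 of 166 loci. These intron lengths were not compared with those of other loci. The first intron was the largest of all at 53 of the 166 loci, a share close to the 30.9% of the loci with 20 to 39 exons. Another locus lay inside 51 giant loci, where the share among loci with 20 to 39 exons was 28.9%. The 83 inner loci included 18 with a single exon and 11 with an annotated gene. Among the latter were rims3, inside XLOC_016246, and mab21l2, inside XLOC_004890.

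Among 357 names of long or many-exon proteins, sorted into 11 groups, 70 had a model in the catalogue and 32 of these (45.7%) were giant, where the share over all annotated symbols was 0.948%. The names were chosen for their size and with earlier results known, so nothing is read from that gap. The fibrillar and basement membrane collagens had 10 models, of which 6 were giant: col24a1 with 57 exons, col2a1 of cartilage and notochord with 53, col1a1 (LOC496414 in the gene models) with 52, col1a2 with 50, and col3a1 and col18a1 with 46 each. Of 7 models among laminins and other matrix glycoproteins, lama5, reln, fbn3 (a fibrillin, 48 exons) and fn1 (fibronectin, 47 exons) were giant. Of 7 among spectrins and their relatives, syne1, tln2, sptan1 (alpha spectrin, 54 exons) and flna (filamin, an actin crosslinker, 49 exons) were.

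Myosins gave 5 giant members of 7 models: myh4 with 43 exons, myo18a with 42, myo10 with 41, and the joined locus of myh3 and myh7 with 41, a number that myh7 transcripts reached and myh3 transcripts, with at most 26, did not. The group of giant kinases and exchange proteins gave trio and pi4ka, a phosphatidylinositol kinase, with 56 exons each, usp9x, a deubiquitinase, with 46, and tsc2, a brake on TOR signalling, with 41. These were 4 of 7 models. The translation and lipid group gave 4 of 11: gcn1l1, acacb (acetyl-CoA carboxylase, 52 exons), abca4 (a lipid transporter of photoreceptors, 51) and complement c4a (40). Chromatin and RNA machinery gave 3 of 9: cnot1, nup205 (45) and nup188 (44). Muscle filament and membrane proteins gave 1 of 2, myof (53), and dyneins and cilia 1 of 4, cep290 (45). Neither the calcium channels, with 1 model, nor the endocytic and adhesion receptors, with 5, had a giant locus, and notch1, the largest of the receptors, had 36 exons.

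Near the threshold, 20 loci had 40 exons and 25 had 39. The 3 widest at 40 were XLOC_003761 (331 kb), XLOC_009475 (207 kb) and ralgapa2 (177 kb), and the 3 widest at 39 were the locus of LOC100135382 and c3p1 (552 kb), XLOC_003016 (195 kb) and XLOC_004364 (152 kb).

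Internal exons, told apart by their exact ends, numbered 13073 at giant loci and had a median length of 104 bases (quartiles 59 and 153). The median was 95 bases at annotated and 112.5 at class u loci, and 111 at loci with 20 to 39 exons. A length divisible by 3 was found in 45.6% of them (44.7 to 46.4). The share was 43.6% at annotated and 47.4% at class u loci, and 39.6% (39.2 to 40.0) at loci with 20 to 39 exons. Exons seen in a single transcript, 22.4% of the total, were divisible by 3 in 36.7% of cases, and exons in 5 or more transcripts in 50.4%.

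Exon lengths recurred along some of these transcripts. In the largest transcript of col2a1, 23 of 51 internal exons had exactly 54 bases, and 36 consecutive exons had lengths divisible by 3. The count of 54-base exons was 27 of 55 in col24a1, 21 of 50 in col1a1, 20 of 48 in col1a2 and 19 of 44 in col3a1. Exons of 45, 54 or 99 bases, or of 2 or 3 times 54 bases, together made up 40 of the 51 internal exons of col2a1 (78.4%) and 40 of the 50 of col1a1.

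At 13 giant loci the largest transcript had 10 or more exons of 54 bases, 6 annotated and 7 of class u, as it did at 0.349% of the loci with 20 to 39 exons, where col9a2 and col9a3 were among 6. This count and the list of related lengths were chosen after the lengths had been seen. The sixth annotated locus was the one carrying tulp3, with 29 of 65. Of the class u loci, XLOC_027341 had 36 of 59, and all 59 of its internal exons were divisible by 3. It lay on the minus strand of GL174180 from 17052 to 46749. The others were XLOC_006820 (30 of 59), XLOC_016698 (29 of 60), XLOC_017148 (28 of 61), XLOC_009608 (24 of 43), XLOC_001997 (23 of 43) and XLOC_016246 (13 of 69). The files give these loci no gene name, and whether their exons are coding was not analysed here.

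Other lengths recurred elsewhere. At the locus carrying ifit5, between cacnb4 and nmi on GL172863 from 915571 to 1010861, 41 of 101 internal exons had 105 bases and 11 had 312, and 96 consecutive exons were divisible by 3. Over the first 40 internal exons the lengths repeated with a period of 4. All 36 pairs of exons 4 apart were within 3 bases of each other, against 0 of 38 pairs 2 apart and 10 of 39 neighbours. At lama5, over the same window, 6 of 36 pairs 4 apart were that close. At XLOC_018268 14 of 35 pairs 4 apart and 18 of 38 neighbours were. These loci and the window were chosen after the lengths had been seen.

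In fbn3, whose protein is built of repeated calcium-binding EGF domains, 15 of 46 exons had 126 bases and 42 consecutive exons were divisible by 3. XLOC_000781 of class u likewise had 14 of 39 exons of 126 bases and a run of 38. XLOC_018268 had 18 of 39 exons of 267 bases, XLOC_003875 had 15 of 72 of 36 bases, and eln1, an elastin gene, had 7 of 47 of 33 bases with a run of 30. Such runs were not the rule. The most frequent length occurred a median of 3 times per locus, and the median longest run divisible by 3 was 5 exons.

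**Figure D2:**
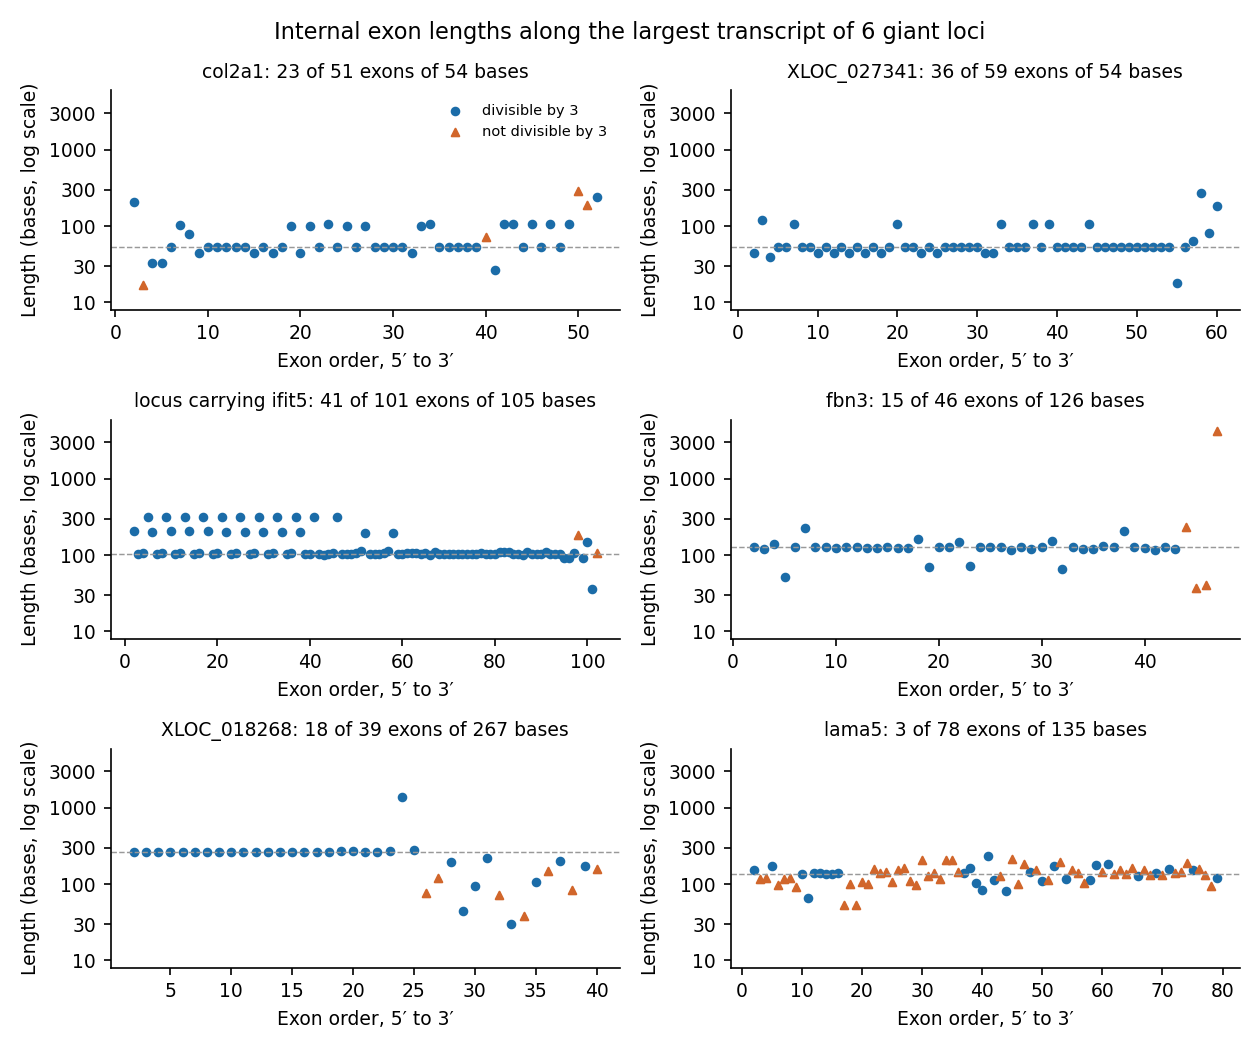
Length in bases on a log scale (y axis) of each internal exon in order along the largest transcript (x axis) at 6 giant loci, with circles for lengths divisible by 3, triangles for other lengths and a dashed line at the most frequent length. The 54-base row holds 23 of 51 exons in col2a1 and 36 of 59 in XLOC_027341, the locus carrying ifit5 shows the 4-exon period, and lama5 has no length in more than 3 exons.

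Isoforms, counted as assembled transcripts with at least 2 exons, numbered 1 to 678 per giant locus with a median of 23 (quartiles 13 and 46.5). The median was 27 at annotated and 22 at class u loci, and 14 at loci with 20 to 39 exons. The col1a1 locus had the most, 678, followed by XLOC_016328 of class u with 498, col2a1 with 171, the locus carrying tulp3 with 160, XLOC_000358 with 137 and sptan1 with 133. At col1a1 there were 560 internal exons with different ends, and 29.5% of them were divisible by 3. All exons of that locus, first and last ones included, fell into 56 blocks of overlapping exons. Of the 6605 transcripts at giant loci, 2912 (44.1%) themselves had 40 or more exons, and 19 loci owed their place to a single such transcript.

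A skipped exon was an internal exon that another transcript left out with 1 intron joining its flanking splice sites. At least 1 was found at 149 of 164 giant loci with 2 or more multi-exon transcripts, where the share was 50.9% over all such loci and 83.1% over those with 20 to 39 exons. Of the internal exons at giant loci 11.0% were skipped (10.5 to 11.5). The definition sets this level: it was 51.8% when an exon inside any intron counted, and 5.05% when 2 transcripts with and without the exon were required. The share was 13.0% (12.2 to 13.9) at annotated and 8.90% (8.23 to 9.62) at class u loci, and 12.1% at loci with 20 to 39 exons. Among the loci with 20 to 39 exons it was 13.2% at annotated and 10.8% at class u loci. Annotated loci also had more isoforms in which a skip could be seen, and the part of this in the difference was not tested.

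The largest share was that of cast, which encodes the calpain inhibitor calpastatin, with 44 of 92 internal exons (47.8%). Its largest transcript held 39 consecutive exons divisible by 3. XLOC_018268 followed with 14 of 43 (32.6%), and XLOC_004138 with 19 of 69 (27.5%). The genes fn1, sbf1 and pde4dip (a centrosome and Golgi scaffold) each had 25%, with 22 of 88 exons at fn1 and 14 of 56 at both of the others. At the other end, 8 loci with at least 5 isoforms had no skipped exon, among them the locus of myh3 and myh7, with 13 isoforms, and lrrc16b (carmil3, a regulator of actin capping), with 17. The other 6 were of class u: XLOC_024903, XLOC_003738, XLOC_004890, XLOC_011019, XLOC_007800 and XLOC_001603. Skips of several consecutive exons are not counted here. At lrrc16b 1 intron left out 2 consecutive exons, and at XLOC_003738 2 introns left out blocks of up to 4.

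Fibronectin is known in vertebrates for alternatively spliced domains. At fn1 (XLOC_001479, minus strand of GL172651, 887255 to 937017), 22 of 88 internal exons were skipped. An exon of 270 bases from 898499 to 898768 was in 23 transcripts and left out by 10. One of 267 bases from 908182 to 908448 was in 33 and left out by 9, and one of 90 bases from 896356 to 896445 was in 33 and left out by 12. These 3 lengths are divisible by 3. An exon of 49 bases from 902119 to 902167, which is not, was in 21 and left out by 20. These exons are examples from the 22, and none was matched to a known domain. Of 7 introns at fn1 that left out several consecutive exons of the largest transcript, 28.6% removed a total length divisible by 3.

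**Figure D3:**
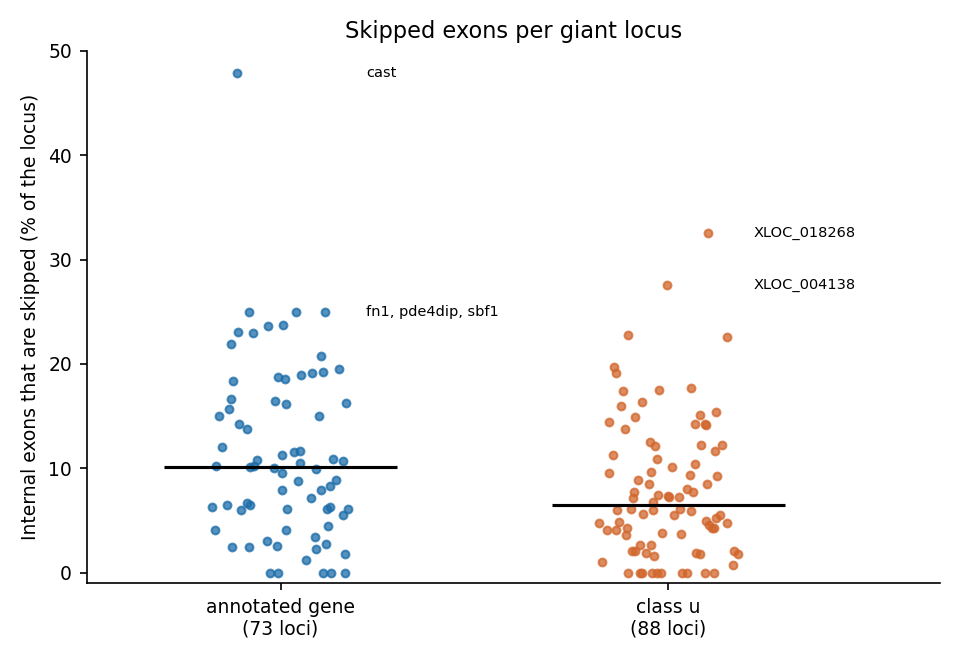
Share of internal exons that were skipped (y axis, percent) at each of 73 annotated and 88 class u giant loci with at least 2 multi-exon transcripts, 1 point per locus spread sideways for visibility, with a bar at the median. The medians are 10.1% and 6.45%, and cast stands highest at 47.8%.

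Lengths divisible by 3 were commoner among skipped than among constitutive exons, meaning by the latter exons in every transcript that spanned them, with at least 3 such transcripts. No coding sequence was used here, so lengths alone were measured and the reading frame was not, and 574 of the skipped exons lay at class u loci not known to be coding. A length divisible by 3 was found in 61.7% of 1426 skipped exons (59.2 to 64.2) and in 42.7% of 3673 constitutive exons (41.1 to 44.3), a difference of 19.0 percentage points (16.0 to 22.0, counting error only). The 2 kinds came partly from different loci: col1a1 gave 105 skipped and 0 constitutive exons, and col2a1 33 and 0. Without the loci with 10 or more exons of 54 bases, an alternative added after seeing the data, the difference was 16.3 points. With the other definitions of a skip, the difference was 6.04 points for an exon inside any intron and 30.7 points with 2 transcripts each. The difference was 17.5 points at annotated and 21.9 points at class u loci. It was 11.9 points (10.6 to 13.3) at loci with 20 to 39 exons, 7.51 points at 10 to 19 and 2.57 points at 2 to 9. In single loci the direction was mixed: of 73 giant loci with at least 5 exons of both kinds, the skipped share was higher in 54 and lower in 19. Of 387 such loci with 20 to 39 exons, it was higher in 257, lower in 117 and equal in 13.

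Skipped exons were shorter, with a median of 84 bases against 136 for constitutive ones. At loci with 20 to 39 exons these medians were 92 and 125 bases. The medians at giant loci pool loci such as col1a1, with 105 skipped and 0 constitutive exons, and were not taken without them. Microexons, internal exons of at most 27 bases, numbered 583 (4.46%) and were found at 90 of 166 giant loci, against 11.7% of all spliced loci and 33.6% of loci with 20 to 39 exons. Among skipped exons 6.59% (94 exons) were microexons, and among constitutive exons 0.299% (11 exons). The other microexons were neither skipped nor constitutive, so the 2 shares cover a small part of them. Loci with 20 to 39 exons showed the same contrast, with 4.07% of skipped and 0.394% of constitutive exons. There 2.35% of all internal exons were microexons. The col1a1 locus alone held 123 of the 583 microexons at giant loci.

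**Figure D4:**
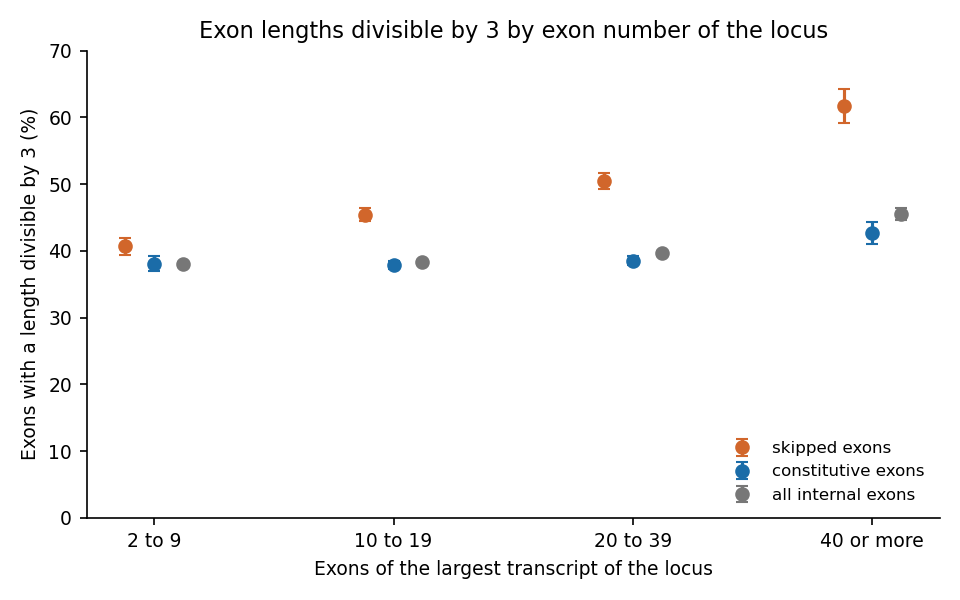
Percent of internal exons with a length divisible by 3 (y axis) by the exon number of the locus (x axis), for skipped, constitutive and all internal exons, with 95% Wilson intervals as bars. Skipped exons run from 40.7% at loci with 2 to 9 exons to 61.7% at giant loci, and constitutive exons from 38.1% to 42.7%.

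Introns that left out a block of several consecutive exons of the largest transcript mostly removed a total length divisible by 3. Here too only lengths were measured, and 284 of these introns lay at class u loci. Of 911 such introns at 101 loci, 814 (89.4%, 87.2 to 91.2) removed a total divisible by 3, against 70.1% of the 698 introns that left out 1 exon. The share was 90.9% at annotated and 86.3% at class u loci, and 62.7% at loci with 20 to 39 exons. In 400 of the blocks at least 1 exon was not itself divisible by 3, and the total was so in 303 of these (75.8%, against 44.3% at loci with 20 to 39 exons). The longest block, at lama5, held 41 exons.

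A few loci supplied most of these blocks. The col1a1 locus gave 192 of the 911, col2a1 85, col1a2 78, XLOC_016328 66 and col3a1 57. Without the 13 loci with 10 or more exons of 54 bases, 80.1% of 361 blocks had a total length divisible by 3. At the same loci, 64.2% of 573 introns that left out 1 exon did so. Among 242 of the 361 blocks at least 1 exon was not itself divisible by 3, and the total was so in 70.2%. XLOC_016328 was still included there, and 98.5% of its 66 blocks had a total divisible by 3. Counted by locus, all blocks had such a total at 51 of 101 giant loci and none did at 15. Among 694 loci with 20 to 39 exons, all did at 312 and none did at 216. The mean share per locus was 73.1% at giant loci and 57.2% at loci with 20 to 39 exons. A locus with a single block, such as trio, can only count as all or none. These counts therefore say little about how alike the blocks within a locus were.

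**Figure D5:**
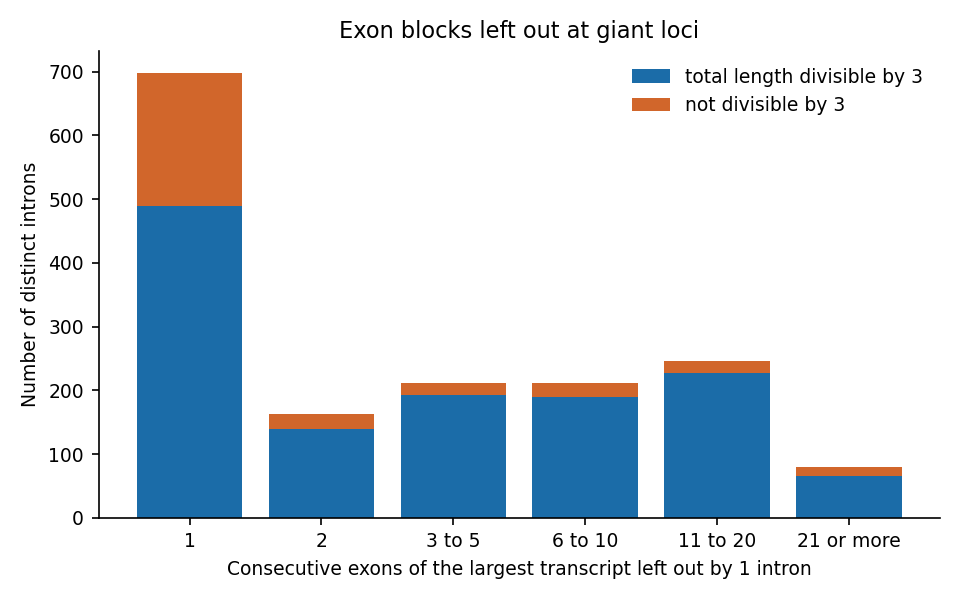
Number of distinct introns at giant loci (y axis) by how many consecutive exons of the largest transcript they left out (x axis), split by whether the total length left out was divisible by 3. The divisible part is 489 of 698 for single exons, 139 of 163 for 2 exons and 227 of 246 for 11 to 20 exons.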

How the data were processed

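The deposited tables hold 1 transcript assembly made from all 40 strand-specific libraries together. Bowtie, TopHat and Cufflinks appear in the submitters' processing notes, without versions; build and annotation are likewise not stated there. The deposited values headed FPKM are a score, called relative weight: none exceeds 1 and 58.9% equal 1. The deposited coverage is a value of the assembler for each transcript of the pooled assembly, and it was not used in a result. The deposited gene models give the exon ends of 159469 transcripts. Positions are counted from 1 on scaffolds of an unnamed build.

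Loci were taken as the authors grouped transcripts, and classes follow Cufflinks codes. Exon events, lengths and Wilson or Newcombe intervals at 95% were computed with Python 3.11.15, pandas 2.3.3 and SciPy 1.17.1, and the code was tested on simulated gene models. No test was run, since no value belongs to a library.

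The members and gene lists were chosen with earlier results of these data known. Named loci are those with the most exons (12 annotated, 6 class u), the 6 each with largest span, most isoforms, and largest and smallest skipped share, list members, and 3 on either side of 40 exons. Of the loci with at least 5 isoforms, 8 had no skipped exon, so these 8 are named. Loci named for repeated lengths, short span, inner genes or joined genes were picked with their values in view. Symbols were matched to RefSeq assembly UCB_Xtro_10.0 for names only (78 of 79). Alternatives covered the exon minimum, relative weight, merging of exons, medians over loci, the definition of a skip and left-out loci. One locus that joins several genes is not reported here.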

Additional observations from a re-analysis of the deposited data

How the results depend on the processing

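No paired analysis was possible because no value belongs to a single sample. The number of giant loci was 300 at a minimum of 35 exons, 60 at 50, 104 with transcripts of relative weight 1 only, and 407 counting non-overlapping exon blocks. At 50 exons, median span was 94.4 kb and median isoform number 28. Median exon length was 107 bases at 35 exons, 94 at 50, 125 with overlapping exons merged, 123 as a median over loci, and 119 without the loci with 10 or more exons of 54 bases, an alternative added after seeing the data. The share divisible by 3 was 43.6% at 35 exons, 51.6% with exons merged and 42.5% as a median over loci. The skipped share was 7.92% as a median over loci, 51.8% counting an exon inside any intron, 5.05% requiring 2 transcripts with and without the exon, and 10.2% without the 54-base loci. The difference between skipped and constitutive exons in the share divisible by 3 was 29.2 points with exons merged, 15.5 as a median over loci, 6.04 with any intron and 30.7 with 2 transcripts each; it kept its sign in every alternative run. The cause of these shifts was not tested. Assembly from short reads can join genes or combine distant exons into 1 transcript, and unknown depth limits how many skips could be seen.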
